A study of Mus musculus with 6 samples.

Results

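The heat shock chaperones of the cytosol were followed through PFC tissue (prefrontal cortex) of P301S Tau and WT mice by 10 genes chosen by symbol: Hspa1a, Hspa1b, Hspa8, Hsph1, Hsp90aa1, Dnajb1, Dnajb5, Bag3, Hspb1 and Hspe1. They are 10 of the 54429 genes with a row in the count files, and all 10 were among the 20409 genes that passed a filter on low counts. The genes were chosen with their values in these libraries known, so their levels and fold changes are a description and carry no test. The label holds for 9 of the genes, whose proteins work in the cytosol and nucleus. Hspe1 encodes the mitochondrial co-chaperonin HSP10 and was kept because the choice was made by symbol.

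RNA was sequenced from 6 libraries of PFC tissue, 2 from each of 3 groups of mice aged 6 months. The WT group, labelled (C57BL/6 x C3H), was given vehicle. A group labelled PS19(P301S) was given the same vehicle, and another was given UNC0642, an inhibitor of the histone methyltransferases EHMT1 and EHMT2, which place the repressive dimethyl mark on lysine 9 of histone H3. Each mouse had 3 daily injections, with a UNC0642 dose of 1 mg/kg or with vehicle (saline with 0.18% DMSO), and tissue was taken 24 hours after the last. The PS19 transgene is a mutant human tau driven by the mouse prion protein promoter, so it adds human tau on top of the endogenous mouse gene. A WT group given UNC0642 was not analysed here, so the drug was compared only on the Tau background.

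Chaperones hold unfolded proteins and help them to fold. HSP70 proteins bind exposed stretches of a client and release them with each cycle of ATP hydrolysis. J-domain proteins (the DNAJ family) bring clients and start the hydrolysis, nucleotide exchange factors reset the cycle, and HSP90 takes over clients in a later folding state. When unfolded proteins build up, heat shock factor 1 (HSF1) binds heat shock elements in the promoters of many chaperone genes and raises their transcription. In neurons the same machinery handles tau, and HSP70 and HSP90 with their co-chaperones are known to steer it towards refolding or degradation.

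The promoters are shown first because the HSF1 element is the feature that these genes are known for. It was searched as an inverted pair of its units, the letters GAANNTTC or TTCNNGAA, each of which reads the same on both strands, so that 3 alternating units hold both patterns in overlap. RefSeq windows on GRCm38.p6 from 250 bases before to 50 bases after each start were found for 8 of the 10 genes, and Hsp90aa1 and Hspa8 are named only. The letters were present in 6 of the 8 genes, namely Hspa1a, Hspa1b, Hsph1, Hspb1, Hspe1 and Bag3, and in 17.0% of the 27025 genes with such windows. Overlapping patterns of 3 units were present in Hsph1 and Hspe1, and in 0.662% of all genes with windows. That of Hsph1 lay outside the stretch printed below and not wholly before the start. Dnajb1 and Dnajb5 had none in their windows, and the single match of Bag3 lay after the start. A match is a stretch of letters and not a measured binding site. The stretches before the start follow with the units of each match in capitals, printed 5′ to 3′ on the strand of the gene. Hspa1a lies at chr17:34972229-34972284 on the minus strand, Hsph1 at chr5:149636338-149636393 on the minus strand, Hspb1 at chr5:135887778-135887853 on the plus strand and Hspe1 at chr1:55088035-55088100 on the plus strand.
Hspa1a: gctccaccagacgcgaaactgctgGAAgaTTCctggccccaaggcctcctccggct
Hsph1: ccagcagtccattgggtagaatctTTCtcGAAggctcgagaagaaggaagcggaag
Hspb1: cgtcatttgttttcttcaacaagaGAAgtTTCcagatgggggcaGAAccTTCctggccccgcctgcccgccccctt
Hspe1: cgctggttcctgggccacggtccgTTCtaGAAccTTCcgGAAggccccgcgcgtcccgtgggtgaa
Hspa1b carries the stretch of Hspa1a letter for letter at chr17:34959311-34959366, and 247 of the 250 bases before the start (98.8%) were identical between the 2 genes. The stretch of Hspe1 also lies in a window of Hspd1, the neighbouring gene for the mitochondrial chaperonin HSP60, which is read from the other strand. The same letters were present in 16 of 55 other cytosolic chaperone genes with a window and in 1 of 13 genes of endoplasmic reticulum (ER) chaperones.

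The libraries held 17005664 to 28972176 counts, and levels are given below as CPM, counts divided by the TMM-scaled library size in units of 1000000. Before scaling, the level that 3 counts stand for ran from 0.104 to 0.176 CPM. Several properties of the libraries bear on the comparisons. The mouse Prnp gene, whose promoter drives the transgene, stood at 1652 CPM in the library labelled WT replicate 1, against 873 CPM in WT replicate 2 and 1470 to 1694 CPM in the 4 Tau libraries. Mapt, the mouse tau gene, stood at 576 CPM in the library labelled WT replicate 1. It was at 449 CPM in WT replicate 2 and at 571 to 614 CPM in the 4 Tau libraries. Xist, the RNA of the inactive X chromosome, was at 191 to 317 CPM in WT replicate 2 and both Tau vehicle libraries and at 0.118 to 0.197 CPM in the others, while the Y-linked Ddx3y was at 0.115 to 0.644 CPM in the first 3 and reached 101 CPM in the others. The comparison of UNC0642 with vehicle in Tau mice therefore cannot be told apart from one between sexes. WT held 1 library of each pattern, so that WT replicate 2 is the match for Tau vehicle and the library labelled WT replicate 1 the match for UNC0642. With its Prnp and Mapt levels the WT label of that library is in doubt, so values against it alone are not a sure comparison with WT. In tissue RNA, fewer cells of a type and less RNA per cell cannot be told apart. The study describes the libraries of a group as biological duplicates, and the labels number them without naming a mouse.

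Most of the 10 genes had their lowest levels in WT, and 3 were higher with UNC0642 than with vehicle in Tau mice. A gene is called here when edgeR's quasi-likelihood test gave p under 0.05 and the change was at least 1.2-fold. In Tau vehicle against WT vehicle, 4 of the 10 genes were called higher (Dnajb1, Dnajb5, Hsph1 and Hsp90aa1) and 0 lower, where 3.72% of all genes tested were called higher and 6.1% lower. In UNC0642 against vehicle in Tau mice, 3 were called higher (Dnajb1, Hspa1a and Hspa1b) and 0 lower, where 3.73% of all genes were higher and 3.95% lower. In UNC0642-treated Tau against WT, 7 were called higher (the same 4 genes as in Tau vehicle, with Hspa1a, Hspa1b and Hspe1) and 0 lower, where 3.77% of all genes were higher and 5.69% lower. In either direction, 9.81%, 7.69% and 9.47% of all genes were called in the 3 comparisons. Groups that did not overlap were found for 5 genes higher and 0 lower in UNC0642 against Tau vehicle, where 20.4% and 20.9% of all genes were so placed, and for 7 higher and 0 lower in UNC0642 against WT, where 22.1% and 22.3% were. With Benjamini-Hochberg adjustment over all genes tested, 1, 0 and 2 of the 10 genes had an adjusted p under 0.05 in the 3 comparisons, where 0.157%, 0.0196% and 0.216% of all genes did. The median log2 fold change over the 10 genes was 0.26, 0.30 and 0.39 in this order, against -0.00011, -0.0023 and -0.012 over all genes. The second fell to 0.16 without UNC0642 replicate 2 and to 0.13 with Hspa1a and Hspa1b summed, and the third was 0.62 without WT replicate 2. Because the genes were chosen with these comparisons known, nothing is read from the counts. The comparisons also share libraries, since each group enters 2 of them. Against WT replicate 2 alone, the log2 fold change of Hspe1 in Tau vehicle was 0.35. Against the library labelled WT replicate 1 alone, UNC0642 gave 0.20 for Hsp90aa1 and 1.18 for Hspa8. The value of Hspa8 rests on its low level in that library, 160 CPM against 392 CPM in WT replicate 2.

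**Figure D1:**
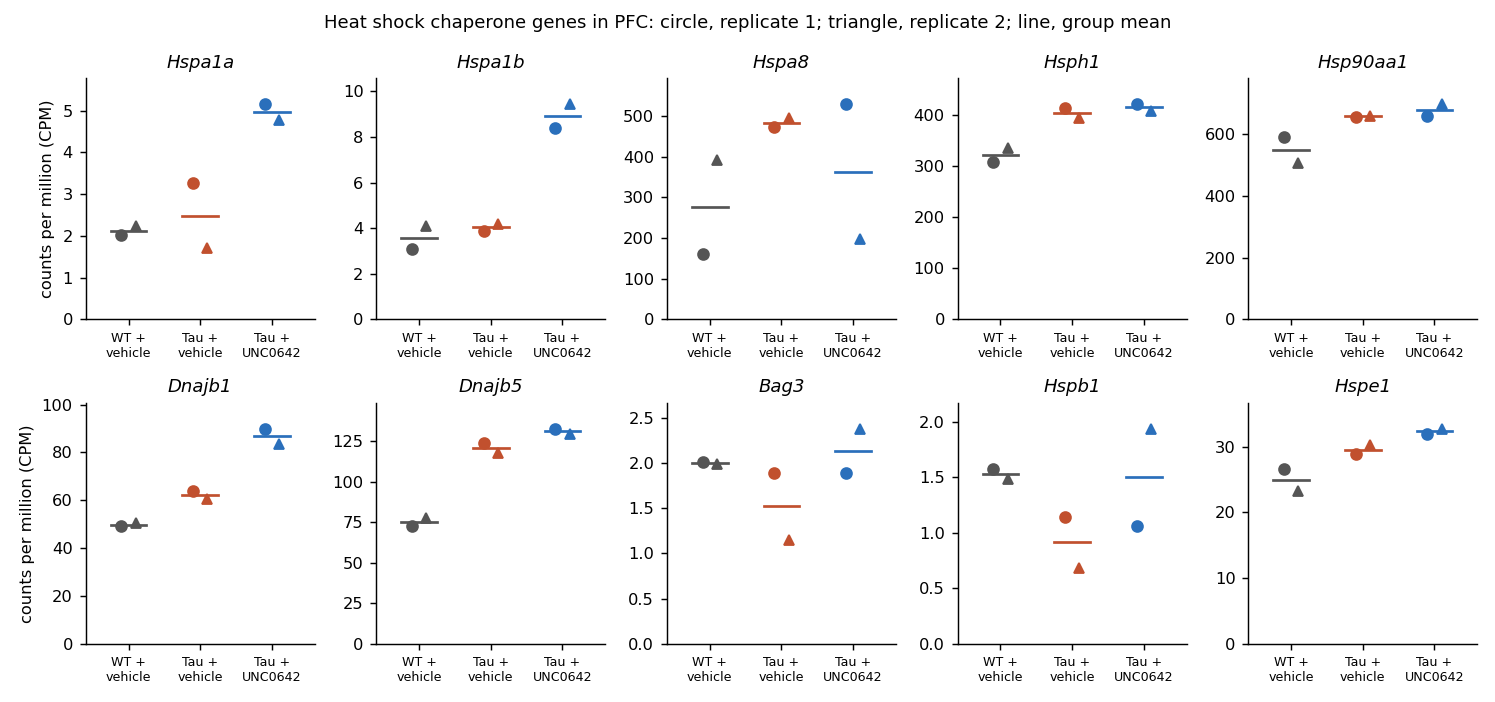
Level of each of the 10 genes in every library, in CPM (vertical axes from 0), by group (horizontal axes), with circles for replicate 1, triangles for replicate 2 and lines for the group means. Dnajb1 is higher at each of 2 steps, Dnajb5, Hsph1 and Hsp90aa1 mainly between WT and Tau, Hspa1a and Hspa1b are high in the 2 UNC0642 libraries, and Hspa8 is low in 1 WT and 1 UNC0642 library.

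Inducible HSP70 had few counts in these libraries and stood apart in the treated mice. Hspa1a and Hspa1b encode the same heat-inducible HSP70, which is made in large amounts under stress and little otherwise. Hspa1b (chr17:34956436-34959238, minus strand) had 3.07 and 4.10 CPM in WT replicates 1 and 2, 3.90 and 4.18 CPM in Tau vehicle, and 8.41 and 9.44 CPM in UNC0642. Both UNC0642 libraries were above the other 4, among which WT and Tau overlapped. The log2 fold change was 0.17 (SE 0.22) in Tau against WT. With UNC0642 it was 1.15 (SE 0.22) against Tau vehicle and 1.31 (SE 0.22) against WT. With 1 library left out at a time it stayed between 1.06 and 1.23 in UNC0642 against Tau vehicle and was called in 6 of 6 fits. Here and below, 2 of the 6 fits leave out a library of the group not compared, which keeps both compared groups whole.

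Hspa1a (chr17:34969190-34972156, minus strand) had 2.01 and 2.23 CPM in WT, 3.25 and 1.72 CPM in Tau vehicle, and 5.15 and 4.76 CPM in UNC0642. The UNC0642 libraries were again the highest, and Tau replicate 2 was the lowest of all with 30 counts. Fitted differences (log2 fold changes) were 0.26 (SE 0.33) in Tau against WT, 0.96 (SE 0.32) with UNC0642 against Tau vehicle and 1.22 (SE 0.32) against WT. Without Tau replicate 2 the value with UNC0642 against Tau vehicle was 0.60 and was no longer called, and without Tau replicate 1 it was 1.52. The transcripts of the 2 genes were 99.2% identical over 2201 bases, so reads could be split between them in either way. How the counting treated reads that match both is not given, so the level of the sum is not sure either. Summed, they had 129 and 162 counts in WT, 200 and 103 in Tau vehicle, and 229 and 322 in UNC0642. This is 5.09 and 6.33 CPM in WT, 7.15 and 5.90 CPM in Tau vehicle and 13.6 and 14.2 CPM in UNC0642, with the treated pair apart from the rest.

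Constitutive HSP70 differed widely within the WT and UNC0642 groups, while both Tau vehicle libraries lay above both WT libraries. Hspa8 (chr9:40800984-40810087, plus strand) encodes HSC70, which folds proteins and uncoats clathrin vesicles in unstressed cells. It had 160 CPM in the library labelled WT replicate 1 and 392 CPM in WT replicate 2. It had 472 and 495 CPM in Tau vehicle, and 529 and 197 CPM in UNC0642 replicates 1 and 2. One WT and one UNC0642 library were low, and the other 4 lay between 392 and 529 CPM. The log2 fold change was 0.81 (SE 0.43) in Tau against WT, -0.41 (SE 0.42) with UNC0642 against Tau vehicle and 0.39 (SE 0.42) with UNC0642 against WT, and none was called. Without a filter on low counts all 3 were called, at 0.80, -0.41 and 0.39, and the first was also called, at 0.80, with the compared groups alone. Single libraries set these values, since Tau against WT ranged from 0.30 without WT replicate 1 to 1.60 without WT replicate 2. UNC0642 against Tau vehicle ranged from -1.30 without UNC0642 replicate 1 to 0.13 without UNC0642 replicate 2. With both low libraries left out, the differences were 0.30, 0.13 and 0.44 in the 3 comparisons, with the first and the last called. With 1 library left out at a time, Hspa8 was called in 3, 1 and 2 of 6 fits.

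The files also count 6 genes whose transcripts were at least 95% identical to Hspa8 over at least 500 bases, and these genes took a different share of the reads in the low libraries. These genes, named after their values were seen, held 39.8% of the summed counts in the library labelled WT replicate 1 and 42.1% in UNC0642 replicate 2, against 17.2% to 18.9% in the other 4. Gm26825, annotated as a long non-coding RNA and 99.6% identical over 1940 bases, had 812 counts in WT replicate 1 and 975 in UNC0642 replicate 2, and 306 to 534 in the others. Gm8355, a processed pseudogene 98.7% identical over 1941 bases, had 1420 to 2412 counts. This is 69.9 and 63.6 CPM in WT, 86.2 and 82.8 CPM in Tau vehicle, and 84.1 and 94.2 CPM in UNC0642. Unlike Hspa8, Gm8355 was not low in UNC0642 replicate 2. With all 7 genes summed, the levels were 266 and 473 CPM in WT, 582 and 598 CPM in Tau vehicle, and 640 and 340 CPM in UNC0642. The same 2 libraries remained the lowest after summing. The summed log2 fold change was 0.67 in Tau against WT, which was called, and -0.27 and 0.41 in UNC0642 against Tau vehicle and against WT, which were not. How the counting treated reads that match several places is not given in the sources used here, and its part in these values was not tested.

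**Figure D2:**
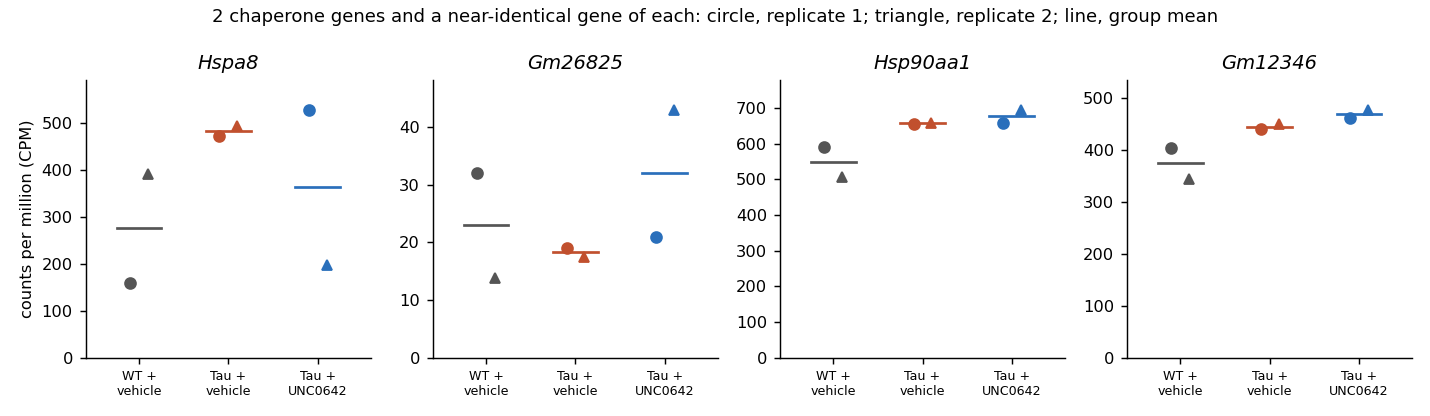
CPM (vertical axes from 0) of Hspa8 and Hsp90aa1 and of 1 near-identical gene of each (Gm26825 and Gm12346) by group, with circles for replicate 1, triangles for replicate 2 and lines for the means. Where Hspa8 is low, in WT replicate 1 and UNC0642 replicate 2, Gm26825 is high, while Gm12346 and Hsp90aa1 are both lowest in WT.

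The HSP110 gene differed between WT and Tau mice and not detectably with the drug. Hsph1 (chr5:149614287-149636376, minus strand) encodes a large HSP70 relative that resets the HSP70 cycle and takes part in dissolving aggregates. It had 309 and 336 CPM in WT, 415 and 394 CPM in Tau vehicle, and 422 and 409 CPM in UNC0642. All 4 Tau libraries were above both WT libraries, and the treated and untreated Tau libraries overlapped. Its log2 fold change was 0.33 (SE 0.075) in Tau against WT, 0.038 (SE 0.075) with UNC0642 against Tau vehicle and 0.37 (SE 0.076) with UNC0642 against WT. In the comparisons with WT it was called in 6 of 6 fits with a library left out, and it was 0.27 in Tau against WT without the library labelled WT replicate 1.

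HSP90 alpha, the stress-inducible form of cytosolic HSP90, behaved in a similar way with a smaller margin. Hsp90aa1 (chr12:110690605-110702728, minus strand) had 590 and 506 CPM in WT, 656 and 660 CPM in Tau vehicle, and 659 and 696 CPM in UNC0642. WT lay below the Tau libraries, although the WT pair differed more from each other than the Tau libraries did. The log2 fold change was 0.26 (SE 0.086) in Tau against WT, 0.043 (SE 0.086) with UNC0642 against Tau vehicle and 0.31 (SE 0.086) with UNC0642 against WT. The call in Tau against WT sat at the 1.2-fold limit and was made in 3 of 6 fits with a library left out, with values from 0.16 without WT replicate 2 to 0.38 without WT replicate 1. The call was also lost, at 0.26, with DESeq2 size factors, without a filter, with the DESeq2 Wald test, with the compared groups alone and with the near-identical genes described next summed. Against WT with UNC0642 the range was 0.20 to 0.42, called in 4 of 6 fits. The pseudogenes Gm12346, Gm5844 and Gm5511, also named after their values were seen, were 97.1% to 99.5% identical to Hsp90aa1 and held 45.4% to 46.7% of the summed counts in every library. Gm12346 alone had 7821 to 12340 counts.

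The J-domain genes held the steadiest differences. Dnajb1 (chr8:83608193-83612653, plus strand) encodes HSP40, the J-domain partner of inducible HSP70. It had 49.2 and 50.3 CPM in WT, 63.6 and 60.3 CPM in Tau vehicle, and 89.9 and 83.5 CPM in UNC0642. The 3 groups did not overlap, with group means of 49.8 ± 0.755, 62.0 ± 2.33 and 86.7 ± 4.58 CPM (SD, n = 2). The log2 fold change was 0.32 (SE 0.086) in Tau against WT, 0.48 (SE 0.086) with UNC0642 against Tau vehicle and 0.80 (SE 0.086) with UNC0642 against WT, which are 1.25-fold, 1.40-fold and 1.74-fold. With a library left out, Dnajb1 was called in 6 of 6 fits of each comparison, with values from 0.28 to 0.36, 0.43 to 0.54 and 0.75 to 0.85. It was the only one of the 10 genes called higher in both steps, as were 21 genes or 0.103% of all genes tested. Within the same sex-linked pattern it was 0.30 in Tau against WT replicate 2 and 0.82 in UNC0642 against the library labelled WT replicate 1.

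Dnajb5 (chr4:42949814-42959425, plus strand) encodes a J-domain protein close to DNAJB1. It had 72.3 and 77.5 CPM in WT, 124 and 118 CPM in Tau vehicle, and 133 and 129 CPM in UNC0642. The 3 groups did not overlap, but nearly all of the difference lay between WT and Tau. Its log2 fold change was 0.69 (SE 0.079) in Tau against WT, 0.12 (SE 0.078) with UNC0642 against Tau vehicle and 0.81 (SE 0.079) with UNC0642 against WT. Against WT it was called in 6 of 6 fits with a library left out, at 0.64 to 0.74 for Tau vehicle and 0.76 to 0.86 for UNC0642. Dnajb1, Dnajb5 and Hspe1 were the 3 genes with WT below Tau and Tau below UNC0642 in every library, an order that 2.97% of all genes tested had.

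The co-chaperone Bag3 and the small heat shock protein Hspb1 had few counts in these libraries. Bag3 (chr7:128523616-128546981, plus strand) encodes a nucleotide exchange factor that couples HSP70 and small heat shock proteins to autophagy. It had 51 and 51 counts in WT, 53 and 20 in Tau vehicle, and 32 and 54 in UNC0642, which is 2.01 and 1.99 CPM, 1.89 and 1.15 CPM, and 1.89 and 2.38 CPM. Hspb1 (chr5:135887919-135889563, plus strand) encodes the small heat shock protein HSP25, which holds unfolded clients without using ATP. It had 40 and 38 counts in WT, 32 and 12 in Tau vehicle, and 18 and 44 in UNC0642, which is 1.58 and 1.48 CPM, 1.14 and 0.687 CPM, and 1.07 and 1.94 CPM. Tau replicate 2 was the lowest library for both genes.

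For Bag3 the log2 fold change was -0.37 (SE 0.35), 0.47 (SE 0.36) and 0.10 (SE 0.35) in Tau against WT, UNC0642 against Tau vehicle and UNC0642 against WT. For Hspb1 it was -0.70 (SE 0.44), 0.70 (SE 0.44) and -0.0059 (SE 0.42). None was called, and with SE of 0.35 to 0.44 a difference is neither shown nor excluded. Bag3 and Hspb1 were the 2 genes with both Tau vehicle libraries below both WT libraries, as were 21.4% of all genes, while 6 of the 10 genes had them above, as did 21.9% of all genes. The pseudogene Hsp25-ps1, 99.4% identical to Hspb1 over 630 bases, had 3 to 11 counts in a library.

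Hspe1 (chr1:55088132-55091307, plus strand) encodes the HSP10 lid of the mitochondrial chaperonin. It had 26.6 and 23.2 CPM in WT, 28.9 and 30.2 CPM in Tau vehicle, and 32.0 and 32.8 CPM in UNC0642. The groups stood in that order with no overlap, with small gaps. Fitted as a log2 fold change, this was 0.25 (SE 0.11) in Tau against WT, 0.13 (SE 0.11) with UNC0642 against Tau vehicle and 0.38 (SE 0.11) with UNC0642 against WT. The last was called in 6 of 6 fits with a library left out, at 0.28 to 0.48. Hspd1, the HSP60 partner read from the other side of the same promoter, had 108 and 103 CPM in WT, 110 and 115 CPM in Tau vehicle, and 119 and 120 CPM in UNC0642. Its log2 fold change was 0.18 with UNC0642 against WT (SE 0.075, adjusted p = 0.372 by edgeR's quasi-likelihood test).

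**Figure D3:**
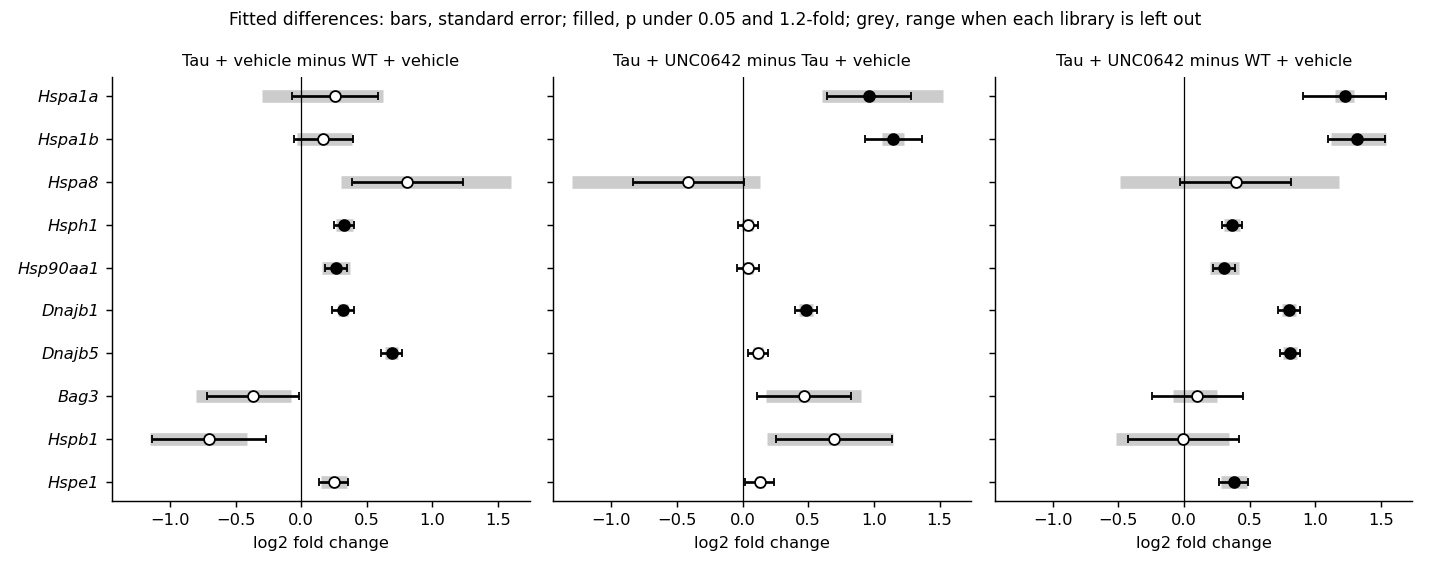
Fitted log2 fold change (horizontal axes) of the 10 genes (vertical axis) in the 3 comparisons, with bars for the standard error, filled points for genes called at p under 0.05 and 1.2-fold, and grey bands for the range when each library is left out. Bands are narrow for Dnajb1 and Dnajb5 and widest for Hspa8, where they run from -1.30 to 0.13 in UNC0642 against Tau vehicle.

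In level, the genes fell into widely separated classes. Per kilobase of the longest coding transcript, the mean over 6 libraries was 191 CPM for Hsp90aa1, 156 for Hspa8 and 100.1 for Hsph1. It was 37.4 CPM per kilobase for Hspe1, 33.0 for Dnajb5 and 22.1 for Dnajb1. The lowest 4 genes had 1.97 CPM per kilobase for Hspa1b, 1.42 for Hspb1, 1.07 for Hspa1a and 0.736 for Bag3. Neighbours in this order had overlapping ranges over the libraries within the first class through Hspa8, within the second class, and within the last 4 genes, but not between classes. The spread over libraries ran from 1.37-fold between the lowest and highest library for Hsph1 to 3.30-fold for Hspa8.

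Averaged over the 10 genes after centring each, the log2 level was -0.33 and -0.17 in WT, 0.060 and -0.16 in Tau vehicle, and 0.32 and 0.29 in UNC0642. In this mean Tau replicate 2 sat with WT replicate 2, and the 2 treated libraries were the highest. The low-count genes Hspa1a, Bag3 and Hspb1 were at 1.72, 1.15 and 0.687 CPM in Tau replicate 2. In WT replicate 2 they were at 2.23, 1.99 and 1.48 CPM. All the other genes were higher in Tau replicate 2 than in WT replicate 2. Each gene has the same weight in the mean, whatever its counts. Around this mean, Dnajb1 was the closest gene to the other 9, with a root mean square distance of 0.13 on the log2 scale over the 6 libraries, and Hspa8 the farthest, with 0.74. Among 12081 other genes with a mean of at least 5 CPM, the profiles nearest to the mean were those of Tmem200a (0.062), Egr3 (0.067), Slc5a3 (0.068), Gm7832 (0.070), Usp27x (0.075) and Dio2 (0.077). The likeness was measured over 6 libraries and says nothing of shared control.

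The rest of the cytosolic chaperone network was taken as 68 listed genes outside the 10, of which 65 were tested. These were the heat shock factors, other HSP70 and HSP110 proteins, J-domain proteins, exchange factors, HSP90 with its co-chaperones, small heat shock proteins and the CCT chaperonin. In Tau against WT, 1 of the 65 was called higher and 0 lower, against 3.72% and 6.1% of all genes, while 54 of the 65 had a positive value and the median was 0.12. In UNC0642 against Tau vehicle, 0 of the 65 were called by edgeR's quasi-likelihood test and 0 by DESeq2. By edgeR, 3.73% of all genes were called higher and 3.95% lower. Of the 65, 1 had an unadjusted p under 0.05, 40 had a positive value and the median was 0.031. In UNC0642-treated Tau against WT, 9 were called higher and 0 lower, against 3.77% and 5.69% of all genes, with 54 positive values and a median of 0.15. None of the 65 had an adjusted p under 0.05 in any of the 3 comparisons, where 0.157%, 0.0196% and 0.216% of all genes did. An unadjusted p under 0.05 at any fold change was found for 14, 1 and 19 of the 65. The share of all genes with such a p was not counted, so nothing is read from these numbers. In the comparisons with WT, the number called was highest without the library labelled WT replicate 1, and nothing is read from that.

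The 9 genes were Hspa4l, Dnaja1, Dnajb4, Stip1, Ahsa1, Ahsa2, Chordc1, Cacybp and Cct5. Dnaja1, a farnesylated J-domain partner of HSC70, had 116 and 108 CPM in WT, 133 and 129 CPM in Tau vehicle, and 153 and 146 CPM in UNC0642. Its log2 fold change was 0.41 in UNC0642 against WT (SE 0.077, adjusted p = 0.0717 by edgeR's quasi-likelihood test). Its groups stood in the order of those of Dnajb1. Dnajb4, another relative of Dnajb1, had 74.0 and 71.9 CPM in WT, 90.2 and 82.9 CPM in Tau vehicle and 100.2 and 95.6 CPM in UNC0642, a log2 fold change of 0.42 against WT (SE 0.083, adjusted p = 0.0903 by the same edgeR test). Chordc1, an HSP90 co-chaperone, was the gene called in Tau against WT, at 0.30 (SE 0.11, adjusted p = 0.339 by edgeR), and reached 0.49 in UNC0642 against WT (SE 0.11, adjusted p = 0.131 by edgeR).

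Like Dnaja1 and Dnajb4, the remaining 6 were called in UNC0642 against WT and in neither other comparison. These were Stip1 (0.32), which bridges HSP70 and HSP90, the HSP90 ATPase activators Ahsa1 (0.33) and Ahsa2 (0.30), Cacybp (0.37), the HSP110 relative Hspa4l (0.28) and the chaperonin subunit Cct5 (0.27), with edgeR adjusted p from 0.131 for Cacybp to 0.373 for Ahsa2. All 8 CCT subunits had a positive value in Tau against WT and in UNC0642 against WT, with medians of 0.12 and 0.24. Of these subunits 0 and 1 were called, where 9.81% and 9.47% of all genes were called in either direction.

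The RNA of the factor itself was not called in the 3 comparisons. Hsf1 had 19.1 and 19.6 CPM in WT, 23.4 and 20.4 CPM in Tau vehicle, and 20.0 and 21.7 CPM in UNC0642, with log2 fold changes of 0.18, -0.073 and 0.11 (SE 0.12) and edgeR adjusted p of 0.555, 0.906 and 0.754. Of the 6 genes for heat shock factors and their binding protein, 0 were called by edgeR or DESeq2 in each of the 3 comparisons. None of them had an unadjusted p under 0.05. By edgeR, 9.81%, 7.69% and 9.47% of all genes were called in either direction, so nothing is read from 0 of 6. Hsp90ab1, the constitutive HSP90 beta, had 1396 and 1398 CPM in WT, 1643 and 1575 CPM in Tau vehicle, and 1495 and 1563 CPM in UNC0642. Its values were 0.20, -0.073 and 0.13 (SE 0.072), with edgeR adjusted p of 0.321, 0.814 and 0.502. The small heat shock protein Cryab, abundant in oligodendrocytes, had 55.8 CPM in Tau replicate 2 and 28.0 to 34.1 CPM in the other 5 libraries.

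**Figure D4:**
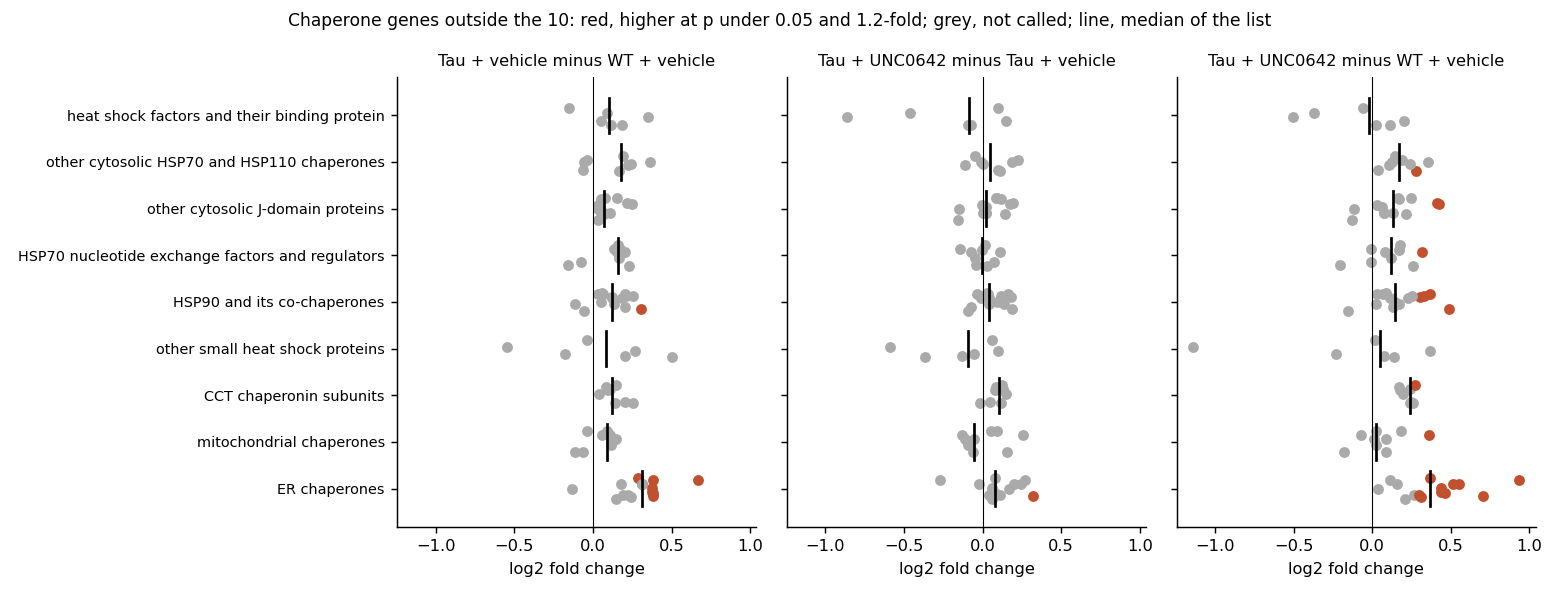
Log2 fold change (horizontal axes) of every tested gene of 9 chaperone lists outside the 10 genes (vertical axis), in the 3 comparisons, with red points for genes called higher, grey points for genes not called and black lines for list medians. Called genes lie mostly in ER chaperones, with 8, 1 and 10 of 15, and in UNC0642 against WT also in J-domain proteins and HSP90 co-chaperones.

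Chaperones of other compartments were counted in the same way. Of 15 ER chaperones, which fold secreted and membrane proteins, 8, 1 and 10 were called higher and 0 lower in Tau against WT, UNC0642 against Tau vehicle and UNC0642 against WT, where 3.72%, 3.73% and 3.77% of all genes were called higher. Hspa5, the HSP70 of the ER, had 341 and 337 CPM in WT, 438 and 448 CPM in Tau vehicle, and 527 and 580 CPM in UNC0642. It was called higher in all 3 comparisons, with log2 fold changes of 0.39, 0.32 and 0.71 (SE 0.075) and edgeR adjusted p of 0.113, 0.327 and 0.00531. Of 9 mitochondrial chaperones without Hspe1, 1 was called higher in UNC0642 against WT (Grpel2, at 0.36, SE 0.12, edgeR adjusted p = 0.283). In the other 2 comparisons 0 of the 9 were called by edgeR or DESeq2 and 0 had an unadjusted p under 0.05. Whether the lists differ from the 10 genes was not tested.

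Genes that follow temperature in the opposite sense to the heat shock response were looked up as well. The cold-inducible RNA-binding gene Cirbp had 65.7 CPM in the library labelled WT replicate 1 and 39.9 to 44.1 CPM in the other 5. Rbm3, another cold-inducible gene, had 25.6 CPM in the library labelled WT replicate 1 and 15.6 to 20.4 CPM in the others. Cirbp was called lower in Tau against WT at -0.43 (SE 0.16, adjusted p = 0.339 by edgeR), with the other WT library at 44.1 CPM. Rbm3 was not called in the 3 comparisons. The part of these differences in the levels of the chaperone genes was not tested.

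Markers of other cell types moved with some libraries. The summed level of 6 striatal projection neuron markers was 209 CPM in Tau replicate 2 and 79.7 to 97.0 CPM in the other 5 libraries, and that of 6 oligodendrocyte markers was 5278 CPM in Tau replicate 2 and 1386 to 2841 CPM in the others. All 6 striatal markers were called higher in Tau against WT and lower in UNC0642 against Tau vehicle, and 2 of the oligodendrocyte markers in each of these directions. Of all genes, 3.72% were called higher in the first and 3.95% lower in the second. Of 5 endothelial markers, 3 were called lower in Tau against WT, where 6.1% of all genes were. Their sums were 117 to 128 CPM in Tau vehicle, 162 to 171 CPM in WT, and 121 and 163 CPM in UNC0642. In Tau against WT, 2 of 6 microglial and 1 of 5 astrocyte markers were called higher. Lower were 2 of 4 mural, 2 of 5 erythroid and 1 of 5 tested meningeal fibroblast markers. In UNC0642 against Tau vehicle, 2 of 5 erythroid and 1 of 5 endothelial markers were called higher, where 3.73% of all genes were. Lower were 1 of 6 microglial and 1 of 4 mural markers. Markers of PFC neurons summed to 5572 to 6485 CPM, and no listed marker was at 0 in all libraries. Of the 8 neuron markers, 0 were called in Tau against WT and 1 was called higher in UNC0642 against Tau vehicle. Their median log2 fold changes were 0.037 and -0.18. With Tau replicate 2 left out, Dnajb1, Dnajb5 and Hsph1 kept their calls in Tau against WT and Hsp90aa1 lost its call at a value of 0.26, and in UNC0642 against Tau vehicle Dnajb1 and Hspa1b kept theirs while Hspa1a lost its call. The part of tissue composition in the remaining values was not tested.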

How the data were processed

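RNA of the PFC was sequenced in 6 libraries. The study trimmed reads with Cutadapt, aligned them with TopHat2 and counted them with featureCounts. The authors deposited counts per gene without normalization, and the submitters' notes name mm10. The strand setting of the counting is not given in the sources used here. In 2 libraries, 26 rows carried a date in place of a gene symbol, and the symbol was restored from the row order. No table of the authors' own comparisons was used.

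Counts were analysed with edgeR 4.0.16, limma 3.58.1 and DESeq2 1.42.0 in R 4.3.3. Genes passed filterByExpr (minimum count 10, minimum total 15), which left 20409, and libraries were scaled by TMM (factors 0.966 to 1.04). One quasi-likelihood model with 3 group means was fitted to all 6 libraries (3 residual degrees of freedom, biological variation 12.3%). SE is the log2 fold change divided by the square root of its F. P-values were adjusted over all genes by Benjamini-Hochberg, and genes were called at p under 0.05 and 1.2-fold. The fit was tested on simulated data. Same-numbered libraries were from different mice and did not deviate together (correlations across genes -0.034, -0.0033 and -0.021), so the numbers were not used as pairs.

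The 10 genes and all lists were chosen with earlier results of these data known. The 10 genes were named, with the called genes of each list (the 4 with the smallest p where more were called), Hsf1, Hsp90ab1, Hspd1, Cryab, Dnaja1, Cirbp and Rbm3, the 6 genes nearest in profile, and genes that check the labels. For long lists fewer were printed. Near-identical genes were found with blastn 2.17.0 among GENCODE M21 transcripts (at least 95% identity over 500 bases). Coordinates are from GENCODE M21 on GRCm38 and promoters from RefSeq on GRCm38.p6. Tables and figures used Python 3.11.15, numpy 2.4.6, pandas 2.3.3 and matplotlib 3.10.9.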

Additional observations from a re-analysis of the deposited data

How the results depend on the processing

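Precision is limited by the 2 libraries a group, and for Hspa1a, Hspb1 and Bag3 also by few counts. For single members of the 10 genes, 396 of 414 alternative values moved by less than the spread between libraries, 18 moved by more, and 0 called values changed sign. These include fits without a library of the group not compared, which keep both compared groups whole. Of 156 alternatives for counts and medians, 134 kept within the limits set, and 22 moved. The alternatives were DESeq2 size factors, no filter, the DESeq2 Wald test, the compared groups alone, each library left out, Hspa1a and Hspa1b summed, and, chosen after seeing the data, all near-identical genes summed and both libraries with low Hspa8 left out. The genes called in Tau against WT went from 2003 to 1322 with the DESeq2 Wald test. The other cytosolic chaperones called in Tau against WT went from 1 to 2 without a filter, to 5 with both low libraries left out, and to 1 to 5 with each library left out. In UNC0642 against Tau vehicle they went from 0 to 1 without a filter and to 0 to 1 with each library left out, and in UNC0642 against WT the 9 stayed at 9 or went up to 16 (highest without WT replicate 1). The median log2 fold change of the 10 genes was 0.26 to 0.34, 0.16 to 0.34 and 0.37 to 0.62 in the 3 comparisons with each library left out. In UNC0642 against Tau vehicle it was 0.13 with Hspa1a and Hspa1b summed, 0.13 with all near-identical genes summed and 0.16 with both low libraries left out, and in UNC0642 against WT 0.45 with both left out. The cause of these shifts was not tested. With the replicate number as a block, 1792, 1404 and 1755 genes were called against 2003, 1569 and 1932 without it, and 4, 3 and 7 of the 10 genes, as without it. The same-numbered libraries share only a number.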

Other observations

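Immediate early genes, which neurons transcribe within minutes of activity, also held genes called higher in each comparison. Of 11 listed, 4, 5 and 7 were called higher in Tau against WT, UNC0642 against Tau vehicle and UNC0642 against WT, and 1 (Ier2) was called lower in the first, where 3.72%, 3.73% and 3.77% of all genes were called higher and 6.1% lower in the first. Arc, which acts at synapses, had 231 and 175 CPM in WT, 333 and 370 CPM in Tau vehicle, and 536 and 553 CPM in UNC0642, with log2 fold changes of 0.79, 0.63 and 1.43 and edgeR adjusted p of 0.0416, 0.171 and 0.0018. Egr3, an activity-induced factor outside that list, was the second nearest profile to the mean of the 10 genes, at 51.9 and 59.8 CPM in WT, 70.3 and 62.0 CPM in Tau vehicle, and 92.6 and 78.6 CPM in UNC0642.

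Of 12 clock genes, 5 were called higher in Tau against WT, and 1 (Arntl) was higher and 6 were lower in UNC0642 against Tau vehicle, where 3.72% of all genes were higher in the first and 3.73% higher and 3.95% lower in the second. In UNC0642 against WT, 3 were higher and 2 lower, where 3.77% and 5.69% of all genes were. Dbp, an output gene of the clock, had 35.1 and 39.7 CPM in WT, 45.9 and 40.7 CPM in Tau vehicle, and 17.5 and 22.9 CPM in UNC0642, with a log2 fold change of -1.10 in UNC0642 against Tau vehicle (SE 0.14, edgeR adjusted p = 0.0549). The hour of the day at which each library was taken was not analysed here. In the first comparison, Per1 was at 39.3 and 41.1 CPM in WT and 77.8 and 56.9 CPM in Tau vehicle.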
